A study of Mus musculus with 6 samples.

Results

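The 6 melanosome genes *Gpnmb*, *Pmel*, *Dct*, *Tyrp1*, *Mlana* and *Rab38* were examined in the peripheral ventrotemporal (VT) retina of wildtype (WT) and *Slc6a4*-/- mice 1 day after optic nerve crush (ONC). They were taken by name, as genes for melanosome structure, pigment synthesis and melanosome transport, from a table of read counts for 701 genes, and all 6 were found in it. The authors had kept in this table only genes with a p-value below 0.05 between the genotypes in these same samples, so that a difference between genotypes in any member is a property of how the table was made and no independent evidence. The question put to the data here was how these genes varied from sample to sample, and whether *Gpnmb*, which the study followed up in retinal ganglion cells (RGCs), varied with its relative *Pmel* and with the other melanosome genes.

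Mice of both groups were labelled C57BL/6, were 8 weeks old (postnatal day 56), and had the left optic nerve crushed 24 hours before dissection. WT mice were C57BL/6J mice without other alleles. *Slc6a4*-/- mice lack the serotonin transporter SERT in the whole body and were bought as a separate line, so that line and genotype cannot be told apart. Each of the 3 samples per genotype pooled the VT retinae of 3 mice, whose sex is not given per pool, and an uninjured retina was not among the samples. The tissue is a cut piece of retina with many cell types, not isolated RGCs, and in such samples fewer cells of a type and less RNA per cell cannot be told apart.

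A melanosome is the organelle, related to the lysosome, in which melanin is made and stored. PMEL forms the amyloid fibres on which melanin is laid down, with the help of the membrane protein MLANA, and the enzymes TYRP1 and DCT act in the synthesis of melanin. The small GTPase RAB38 sends such enzymes from endosomes to the melanosome. GPNMB is a transmembrane glycoprotein of the same family as PMEL, and occurs in pigment cells and in macrophages, among others. By antibody staining, the study found GPNMB protein in nearly all RGCs of the VT and dorsonasal retina. It reported fewer such cells after ONC in WT VT retina, while most were still detected in *Slc6a4*-/- VT retina. In the eye, melanin is made in the retinal pigment epithelium, the pigmented layers of the ciliary body and iris, and melanocytes of the choroid, but not in neurons of the retina. The transcription factor MITF drives many melanosome genes through an element known as the M-box.

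The starts of *Gpnmb*, *Dct* and *Tyrp1* are shown, the members with an entry in the RefSeq table used here, to set *Gpnmb* beside the pigment enzymes. Each window runs from 250 bases before to 50 bases after the RefSeq start (GRCm38.p6), 5′ to 3′ on the strand of the gene, and capitals mark the 7 letters TCATGTG of an M-box or their reverse complement. *Pmel*, *Mlana* and *Rab38* were not matched. *Gpnmb* lies at chr6:49036268-49036567 on the plus strand, *Dct* at chr14:118052197-118052496 on the minus strand and *Tyrp1* at chr4:80833963-80834262 on the plus strand.
Gpnmb: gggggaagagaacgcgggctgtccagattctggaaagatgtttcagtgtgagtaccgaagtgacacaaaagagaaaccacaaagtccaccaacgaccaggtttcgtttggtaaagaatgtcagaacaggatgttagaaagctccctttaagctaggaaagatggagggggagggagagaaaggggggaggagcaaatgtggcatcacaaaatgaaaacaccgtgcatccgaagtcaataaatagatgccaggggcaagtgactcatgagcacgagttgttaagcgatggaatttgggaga
Dct: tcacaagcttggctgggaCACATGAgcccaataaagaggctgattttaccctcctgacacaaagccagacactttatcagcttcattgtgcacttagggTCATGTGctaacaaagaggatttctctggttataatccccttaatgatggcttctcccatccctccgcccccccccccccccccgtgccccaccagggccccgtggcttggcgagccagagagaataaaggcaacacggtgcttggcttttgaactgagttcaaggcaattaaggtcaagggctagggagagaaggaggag
Tyrp1: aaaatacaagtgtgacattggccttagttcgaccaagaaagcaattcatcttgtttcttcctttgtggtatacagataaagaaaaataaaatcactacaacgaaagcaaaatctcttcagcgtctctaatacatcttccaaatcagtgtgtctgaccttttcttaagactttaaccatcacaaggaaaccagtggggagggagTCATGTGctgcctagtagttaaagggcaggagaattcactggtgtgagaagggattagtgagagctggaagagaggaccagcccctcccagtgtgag

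The letters TCATGTG stood at 2 places in the *Dct* window, with first bases at -232 (as the reverse complement) and -151 from the start, and at 1 place in the *Tyrp1* window, at -47. The *Gpnmb* window held none, nor the shorter CATGTG or CACGTG on either strand. Over all 32851 windows of this length, 3.77% held TCATGTG, 14.2% held CATGTG (which lies within TCATGTG) and 7.15% held CACGTG on either strand. Among the 646 windows of genes in the count table, 3.25% held TCATGTG. These matches describe letters only, and the absence of a match is limited to this window.

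The counts were read against depth as follows. The authors' RPKM column, the counts and the exon lengths together gave library totals of 75300000 to 79600000 reads in WT and of 81200000 to 94000000 in *Slc6a4*-/- samples. Counts divided by each library's share of the mean total are called scaled counts. *Slc6a4*, the deleted gene, had 1516, 1397 and 1548 reads in the WT samples and 0, 0 and 3 reads in the *Slc6a4*-/- samples. With 3 reads per library taken as the lowest level that can be told from 0, the mutant was at least 560-fold lower. Of 12 retinal neuron markers, 8 were in the table, with summed scaled counts of 49110 to 56450 in WT and 42370 to 58900 in *Slc6a4*-/- samples, and none was at 0. Of these 8, 6 had a lower and 2 a higher mean in *Slc6a4*-/- (median log2 fold change -0.19), and none passed an adjusted p of 0.05 in limma. The cone opsin gene *Opn1sw* was the farthest, at 11540 ± 5510 scaled counts for WT against 4890 ± 1165 for *Slc6a4*-/- (mean ± SD, 3 samples per genotype). Its WT values were 5696, 16640 and 12270 in samples 1 to 3, and only WT sample 1 lay within the mutant range of 3911 to 6179. The cone phosphodiesterase gene *Pde6c* was lower without overlap.

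*Gpnmb* (ENSMUSG00000029816, GRCm38 chromosome 6, 49036546 to 49070929, plus strand) was present at 671.6, 410.8 and 326.9 scaled counts in the 3 WT samples, in the order of their numbers, against 915.4, 1340 and 653.2 in the 3 *Slc6a4*-/- samples. WT sample 1 lay above *Slc6a4*-/- sample 3, so the groups overlapped, while the other 2 samples of each genotype were apart. Means ± SD over 3 samples were 469.8 ± 179.8 for WT and 969.6 ± 346.6 for *Slc6a4*-/-, a difference which limma put at 1.05 ± 0.34 (log2 fold change ± SE). Its p adjusted by Benjamini-Hochberg over all 701 genes was 0.104. As these genes had already been kept for a low p-value, adjusted p-values here do not control the false discovery rate over all genes measured. Within each genotype the highest sample had 2.05 times the *Gpnmb* of the lowest, against 2.06 for the ratio of the genotype means.

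*Pmel* (ENSMUSG00000025359, chromosome 10, 128704195 to 128720238, plus strand) stood at 430.9, 256.9 and 147.2 scaled counts in WT against 590.3, 628.4 and 440.9 in *Slc6a4*-/-. The groups did not overlap, although WT sample 1 and *Slc6a4*-/- sample 3 were close. In limma the genotypes differed by 1.11 ± 0.38 (log2 ± SE, adjusted p = 0.104), from means of 278.3 ± 143.1 and 553.2 ± 99.1 (SD, n = 3 each). *Mlana* (ENSMUSG00000024806, chromosome 19, 29697824 to 29708634, plus strand) had the fewest reads, 36, 16 and 11 in WT and 73, 83 and 29 in *Slc6a4*-/- samples 1 to 3. Again WT sample 1 exceeded *Slc6a4*-/- sample 3, and counting error alone was wide here, since the 95% Poisson interval of the 11 reads of WT sample 3 ran from 5.49 to 19.7. The difference for *Mlana*, 1.37 ± 0.55 (log2 ± SE, limma, adjusted p = 0.108), was the largest of the members and the least precise.

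**Figure D1:**
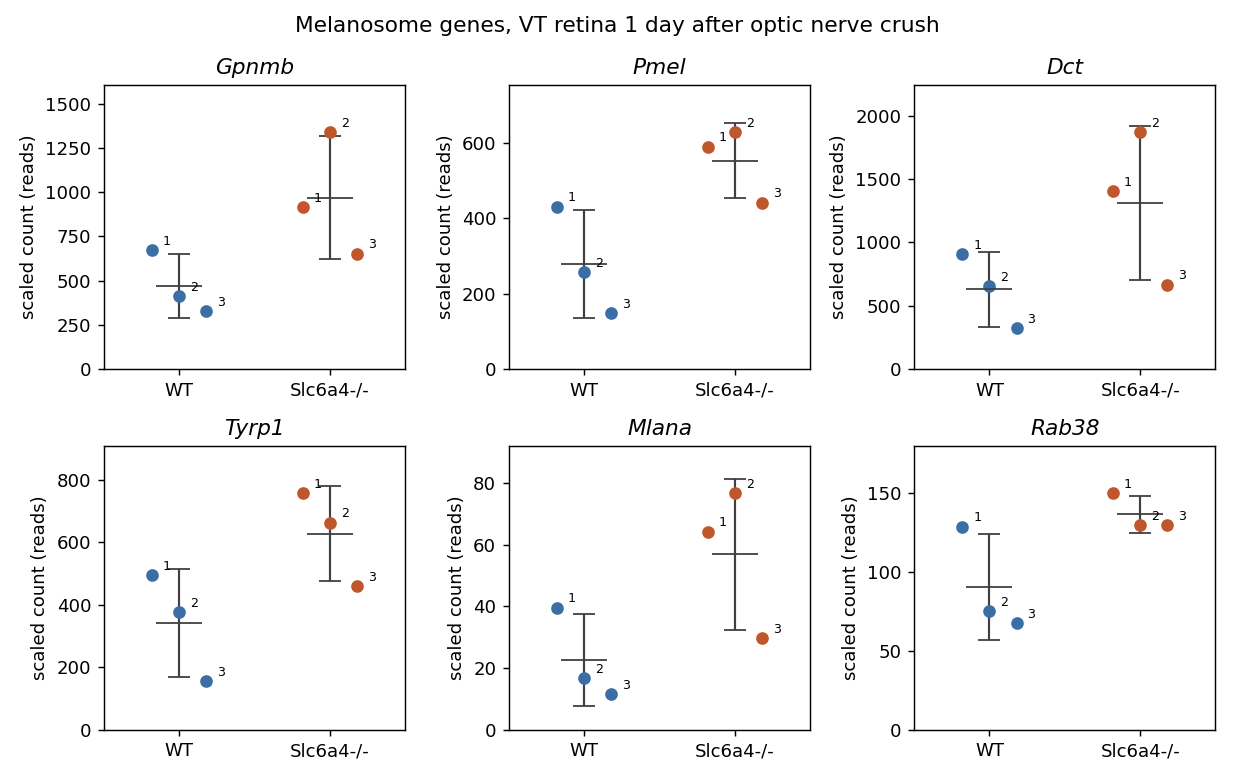
Scaled count (vertical axis, reads, starting at 0) of each melanosome gene in the 3 WT and 3 *Slc6a4*-/- samples, with the sample number beside each point and the mean ± SD as bars. WT sample 1 is the highest WT sample and WT sample 3 the lowest of all 6 samples in each panel, and the genotypes are apart for *Pmel* and *Rab38* only on this scaling.

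The pigment enzymes had the same order of WT samples as *Gpnmb*, while *Tyrp1* was highest in *Slc6a4*-/- sample 1 and *Dct*, like *Gpnmb*, in sample 2. *Dct* (ENSMUSG00000022129, chromosome 14, 118012790 to 118052244, minus strand) reached 909.1, 655.2 and 322.7 scaled counts in WT against 1403, 1871 and 666.5 in *Slc6a4*-/-. *Slc6a4*-/- sample 3 lay between WT samples 1 and 2, and limma gave a difference of 1.06 ± 0.49 (log2 ± SE, adjusted p = 0.11). *Tyrp1* (ENSMUSG00000005994, chromosome 4, 80834123 to 80851719, plus strand) reached 494.7, 375.5 and 155.6 scaled counts in WT against 756.8, 661.7 and 459.3 in *Slc6a4*-/-. The same 450 *Tyrp1* reads were counted in WT sample 1 and in *Slc6a4*-/- sample 3, so these groups overlapped as well, and the difference in limma was 0.99 ± 0.43 (log2 ± SE, adjusted p = 0.109).

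*Rab38* (ENSMUSG00000030559, chromosome 7, 88430273 to 88491572, plus strand), the transport gene, had the narrowest range of the members within *Slc6a4*-/- retina. Its scaled counts were 128.6, 74.9 and 67.3 in WT and 149.8, 129.6 and 129.6 in *Slc6a4*-/- samples 1 to 3. The highest *Slc6a4*-/- sample had 1.16 times the lowest, against 1.43 for *Pmel*, 1.65 for *Tyrp1*, 2.05 for *Gpnmb*, 2.60 for *Mlana* and 2.81 for *Dct*. The groups barely missed each other, and the difference was the smallest of the 6, at 0.65 ± 0.28 (log2 ± SE, limma, adjusted p = 0.109).

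None of the 6 members passed an adjusted p of 0.05 and a 1.5-fold change in limma, where 0.713% of the table's 701 genes passed and were higher in *Slc6a4*-/-. At an unadjusted p below 0.05, 3 members passed (*Gpnmb*, *Pmel* and *Mlana*), and 30.8% of the table did in this direction. With voom weights 0 members passed the adjusted test and 5 the unadjusted one, against 32.1% of the table. The unadjusted count changed with the sample left out. It was 0 when WT sample 2, *Slc6a4*-/- sample 1 or *Slc6a4*-/- sample 2 was left out (11.7%, 24.1% and 12.3% of the table). It was 2 with WT sample 3 left out (15.8%), 5 when *Slc6a4*-/- sample 3 was dropped (25.1%), and 6 when WT sample 1 was (40.2%). Each such fit compared 2 samples with 3, where p can rise at an unchanged difference. With all samples the log2 fold changes of *Gpnmb*, *Pmel* and *Mlana* were 1.05, 1.11 and 1.37. They were 0.985, 1.115 and 1.252 when WT sample 2 was omitted. On omission of mutant sample 1 they were 1.059, 1.051 and 1.231, and of mutant sample 2 0.784, 1.006 and 1.104. How far the drop to 0 came from fewer samples was not tested. For 2 of the 6 members (*Pmel* and *Rab38*) all *Slc6a4*-/- values lay above all WT values, against 35.0% of the table. With scaling by the median of ratios this held for *Pmel* alone and 24.0% of the table, and with counts as deposited for *Gpnmb* as well and 46.4% of the table. Their exact two-sided permutation p was 0.1, the smallest that 3 samples against 3 allow, and it was 0.2 for each of the other 4. The share of members without overlap was thus close to that of the table, from which nothing particular to the members can be read. The call depended on WT sample 1: without it *Gpnmb*, *Pmel*, *Mlana* and *Rab38* passed both thresholds, as did 22.7% of the table in either direction, with log2 fold changes between 0.93 for *Rab38* and 1.85 for *Mlana*. Without WT sample 3 none passed, and the log2 fold change was 0.51 for *Tyrp1*, 0.64 for *Dct*, 0.72 for *Pmel*, 0.82 for *Gpnmb*, 0.47 for *Rab38* and 1.01 for *Mlana*.

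**Figure D2:**
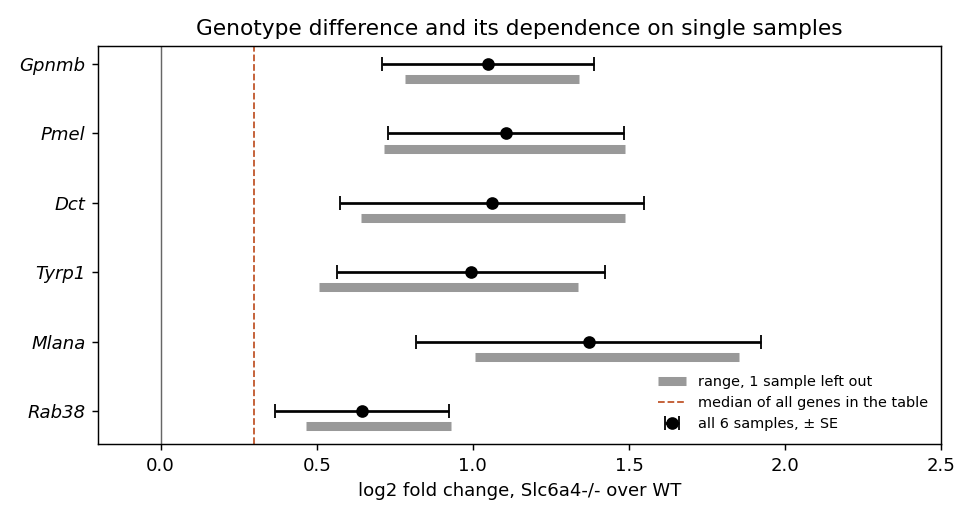
Log2 fold change of each member, *Slc6a4*-/- over WT (horizontal axis), as a point with its standard error from limma, above a grey bar for the range when 1 of the 6 samples is left out. All points and bars lie above 0, and above the dashed line at the median of the 701 genes, 0.30.

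The median log2 fold change was 1.05 over the members and 0.30 over all 701 genes. Relative to the table's median, *Mlana* was higher by 1.07, *Pmel* by 0.81, *Dct* by 0.76, *Gpnmb* by 0.75, *Tyrp1* by 0.70 and *Rab38* by 0.35 on the log2 scale. Scaling by the median of ratios over the table moved the table's median to 0.14. Other factors shift the log2 fold changes of all genes nearly alike. The value for *Gpnmb* relative to the median, again 0.75, is therefore no check on the scaling. As the table kept only genes that differed between the genotypes, its median is no baseline of unchanged genes. Among the 397 genes with a higher mean in *Slc6a4*-/-, 75.6% had a smaller log2 fold change than *Gpnmb*, 90.4% a smaller one than *Mlana* and 50.4% a smaller one than *Rab38*.

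The members shared an order of the WT samples. In all 6 genes WT sample 1 lay above WT sample 2 and WT sample 2 above WT sample 3, as in 36.4% of all 701 genes and in 51.1% of those higher in *Slc6a4*-/-. WT sample 3 was the lowest of the 6 samples for every member, which held for 34.0% of all genes and 59.9% of those higher in *Slc6a4*-/-. *Slc6a4*-/- sample 3 was the lowest mutant sample for all members except *Rab38*, as in 33.2% of all genes and 47.1% of those higher in *Slc6a4*-/-. For all members except *Gpnmb* the fold between the highest and the lowest WT sample exceeded the fold between genotype means, as it did in 37.7% of the table and 46.6% of the genes higher in *Slc6a4*-/-. *Tyrp1* differed 3.18-fold and *Pmel* 2.93-fold between WT samples 1 and 3, against 1.83-fold and 1.99-fold between the means of the genotypes. These are counts of an order, and the members are not independent of one another within a sample.

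A ratio of 2 genes within a sample does not depend on library depth, and was used to set *Gpnmb* against its relative *Pmel*. The scaled count of *Gpnmb* was 1.56, 1.60 and 2.21 times that of *Pmel* in the WT samples, against 1.55, 2.13 and 1.48 times in the *Slc6a4*-/- samples. The lowest and the highest ratio thus belonged to different genotypes and the ranges overlapped almost wholly. The log2 ratio averaged 0.82 ± 0.28 for WT and 0.76 ± 0.29 for *Slc6a4*-/- (mean ± SD, 3 samples per genotype), a difference of -0.06 that was smaller than the spread between samples (exact two-sided permutation test, p = 0.5). While the scaled count of *Gpnmb* itself ranged 4.10-fold and that of *Pmel* 4.27-fold over the 6 samples, their ratio stayed between 1.48 and 2.21. Both genes were kept in the table for a genotype difference and were higher in *Slc6a4*-/-. A ratio that ranges less than either gene is therefore in part a property of how the table was made.

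*Gpnmb* was also compared with each of the other members in this way. The log2 ratio of *Gpnmb* to the mean of the 5 others averaged 1.56 ± 0.24 for WT against 1.57 ± 0.24 for *Slc6a4*-/- (mean ± SD, 3 samples per genotype), a difference of 0.01 (exact two-sided permutation test, p = 1). The difference was -0.01 against *Dct* and 0.05 against *Tyrp1*. It was larger against *Mlana* (-0.32) and *Rab38* (0.40), each with p = 0.3 in the exact two-sided permutation test. The groups overlapped in all 6 ratios compared, and the Benjamini-Hochberg adjusted p over these 6 exact permutation tests was at least 0.9. *Slc6a4*-/- sample 2 stood apart in the ratio of *Gpnmb* to *Rab38*, at 10.3, where the other 5 samples had 4.80 to 6.08. With 3 samples against 3 these tests could not have passed 0.05, and a p that misses the threshold does not show that the ratios are equal.

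**Figure D3:**
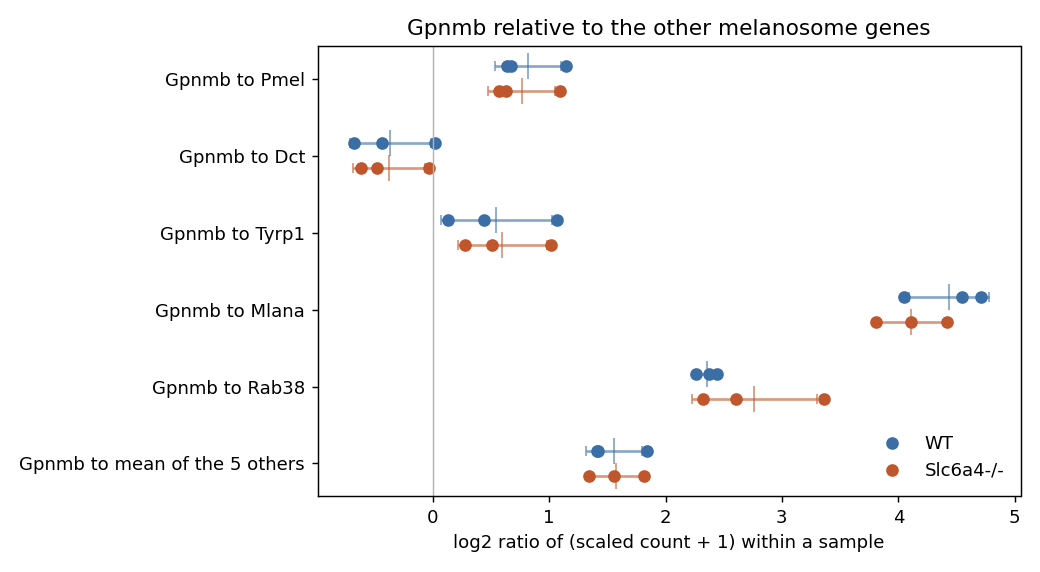
Log2 ratio of *Gpnmb* to each other member, and to the mean log2 of the 5 others, within each sample (horizontal axis), for 3 WT (blue) and 3 *Slc6a4*-/- (orange) samples, with mean ± SD. The genotypes overlap in each row, and the spread is widest for *Rab38* in *Slc6a4*-/-, where 1 sample reaches 3.36.

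Among the 15 pairs of members the steadiest was *Pmel* with *Tyrp1*, whose log2 ratio had an SD of 0.20 over the 6 samples, followed by *Gpnmb* with *Pmel* (0.26) and *Gpnmb* with *Dct* (0.30). The scaled count of *Pmel* was between 0.685 and 0.960 of that of *Tyrp1* in every sample. The least steady was *Mlana* with *Rab38*, with an SD of 0.64, where the low counts of *Mlana* add counting error. Ratios to genes outside the members were not computed, so this steadiness cannot be called particular to the members.

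Levels were compared between genes per exon length, as RPKM on the lengths that the authors' RPKM values imply. For *Pmel*, *Tyrp1*, *Mlana* and *Rab38* these lengths matched the exons of GENCODE M21 within 1%, while for *Gpnmb* and *Dct* they were 0.707 and 0.374 of the GENCODE length. On these lengths *Dct* had the highest level of the members in all 6 samples, at 3.45 ± 1.61 RPKM for WT against 7.20 ± 3.33 for *Slc6a4*-/- (mean ± SD, 3 samples per genotype). *Pmel* (1.46 ± 0.75 and 2.91 ± 0.52), *Tyrp1* (1.46 ± 0.73 and 2.67 ± 0.65) and *Gpnmb* (1.23 ± 0.47 and 2.54 ± 0.91) followed and did not differ from each other beyond their spread. *Rab38* came next in every sample, with 0.689 ± 0.255 RPKM in WT and 1.04 ± 0.0889 in *Slc6a4*-/-. *Mlana* was the lowest in all 6 samples, at 0.258 ± 0.170 and 0.650 ± 0.279 RPKM. On these lengths the order of the means was the same in the 2 genotypes. The place of *Dct* rested on its implied length. On the GENCODE length the mean of *Dct* in WT was 1.29 RPKM, below *Pmel* (1.47) and *Tyrp1* (1.46). In *Slc6a4*-/- it was 2.69, between *Tyrp1* (2.67) and *Pmel* (2.91). The mean of *Gpnmb* on that length was 0.871 in WT and 1.80 in *Slc6a4*-/-. Which length counts the transcripts of these 2 genes better was not tested.

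**Figure D4:**
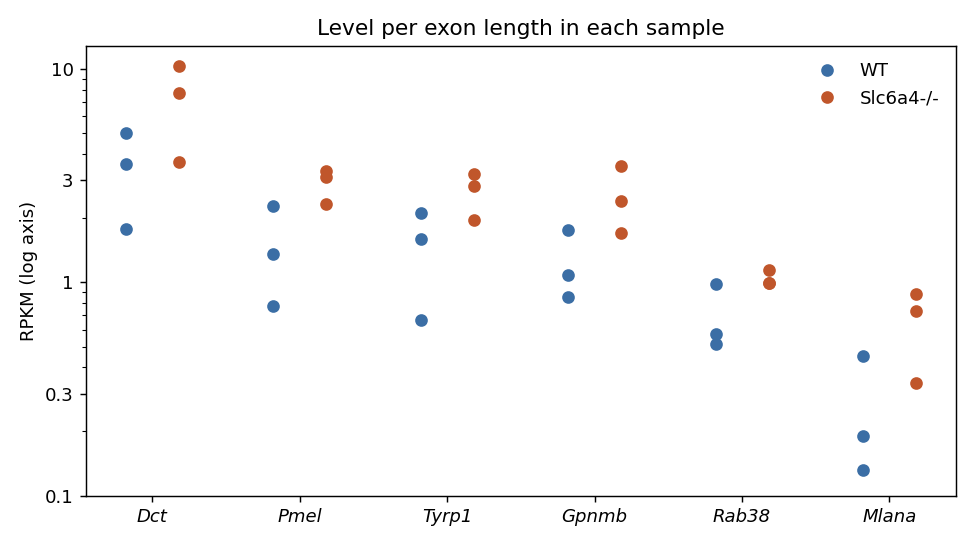
Level per exon length (RPKM, log axis) of each member in the WT (blue) and *Slc6a4*-/- (orange) samples, 1 point per sample, on the lengths implied by the authors' values. *Dct* is highest on that length and *Mlana* lowest in every sample, and *Pmel*, *Tyrp1* and *Gpnmb* share one range in each genotype.

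Of 34 further genes of melanosome formation, pigment synthesis and pigment cell signalling, 3 were in the table and the others were not analysed here. *Bace2*, a protease that cuts PMEL, had scaled counts of 192.4, 96.7 and 52.6 in WT and 244.0, 184.2 and 144.9 in *Slc6a4*-/- samples 1 to 3, with overlap of the groups. *Slc7a11*, which imports the cystine used for pheomelanin and glutathione, had 1584, 1336 and 772.5 in WT and 2344, 1788 and 1485 in *Slc6a4*-/-. *Edn3*, a ligand that promotes melanocyte development, had 47.3, 43.7 and 28.4 in WT and 60.8, 69.4 and 68.4 in *Slc6a4*-/-, without overlap. As in the members, WT sample 3 was the lowest of all samples in each of these genes. None passed an adjusted p of 0.05 in limma, and their log2 fold changes were 0.90, 0.64 and 0.75.

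GPNMB is found in lysosomes too, and 7 of 28 lysosome genes were in the table. The others were not analysed here. All 7 had a higher mean in *Slc6a4*-/-, as did 397 of the 701 genes. In limma 0 of the 7 passed the adjusted test and 3 had an unadjusted p below 0.05. The table's shares in this direction were 0.713% and 30.8%. The median log2 fold change of the 7 was 0.27, close to the 0.30 of the whole table and below each of the melanosome genes. The protease gene *Ctsh* was the farthest, at 519.9, 379.6 and 269.1 scaled counts in WT against 622.0, 684.9 and 592.0 in *Slc6a4*-/-, without overlap. *Ctsd*, a lysosomal protease of far higher level, averaged 9001 ± 1520 and 11030 ± 1466 (SD, n = 3 per genotype), with overlap.

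Markers of other cells that a dissected piece of retina can carry were read beside the members. Here and in the next paragraph, only markers that passed the authors' filter on reads and on p between the genotypes were in the table. A difference between genotypes in their sums is therefore a property of that filter, and the other markers were not analysed. Of 11 markers of the retinal pigment epithelium, 3 were in the table (*Lrat*, *Kcnj13* and *Mfrp*), and their summed scaled count ranged from 538.2 to 1031 in WT and from 1067 to 1516 in *Slc6a4*-/- samples. Of 4 ciliary epithelium markers, 3 were in the table (*Best2*, *Optc* and *Wfdc1*), with sums of 297.5 to 1548 in WT and 1600 to 1684 in *Slc6a4*-/-. In both lists WT sample 1 had the highest and WT sample 3 the lowest sum of the WT samples, the order found in all members and in 36.4% of all genes. *Lrat*, a retinoid enzyme of the pigment epithelium, departed from it, with more in WT sample 2 (396.3 scaled counts) than in WT sample 1 (367.1). *Wfdc1* kept this order, but its genotypes overlapped, since WT sample 1 (345.2) lay above *Slc6a4*-/- samples 1 and 3 (340.1 and 334.8). *Optc*, which encodes a matrix protein made by the ciliary epithelium, had 1066, 617.8 and 166.1 scaled counts in WT samples 1 to 3 and between 1067 and 1162 in *Slc6a4*-/- samples. Of 7 melanocyte markers none was in the table, and these were not analysed here.

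Macrophages and microglia express *Gpnmb* when they take up debris, and 5 of 12 of their markers were in the table (*Lyz2*, *Aif1*, *Mpeg1*, *Cybb* and *Ccr2*). Their summed scaled count was 339.7, 230.9 and 166.1 in the WT samples, against 483.7, 429.4 and 347.0 in the *Slc6a4*-/- samples. Only *Ccr2*, the chemokine receptor of monocytes, was at 0 in a sample, WT sample 3. *Lyz2*, the lysozyme of myeloid cells, had 206.7, 123.8 and 78.8 in WT and 307.5, 219.3 and 175.6 in *Slc6a4*-/-. Among the *Slc6a4*-/- samples, *Lyz2* and *Cybb* were highest in sample 1, and *Aif1* and *Ccr2* in sample 3. *Mpeg1* was highest in sample 2, as *Gpnmb* was. Its scaled counts were 86.8, 68.6 and 62.0 in WT and 105.7, 135.1 and 87.8 in *Slc6a4*-/-. No gene of these lists passed an adjusted p of 0.05 in limma. The part of any of these cell types in the values of *Gpnmb* and the other members was not tested.

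**Figure D5:**
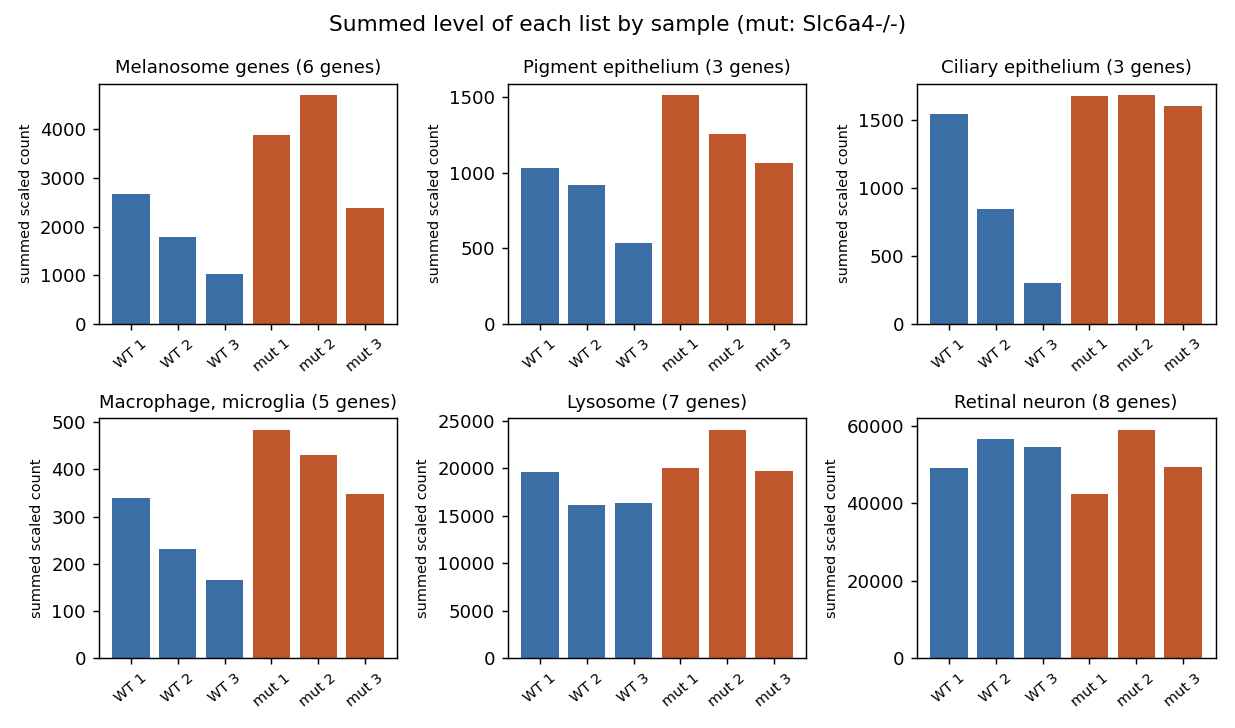
Summed scaled counts (vertical axes, starting at 0) of the 6 melanosome genes and of 5 marker or gene lists in each sample, WT in blue and *Slc6a4*-/- (mut) in orange. The melanosome, pigment epithelium, ciliary epithelium and macrophage sums fall in the order WT 1, WT 2, WT 3, and the retinal neuron sums of the genotypes overlap.

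The genes whose profile over the 6 samples was most like that of *Gpnmb* were sought among the 513 other genes with a mean scaled count of at least 100. The 5 nearest by Pearson's r of log2(scaled count + 1) were *B2m* (r = 0.991), *Tns1* (0.988), *Ociad2* (0.984), *Ephx1* (0.983) and *Gstt1* (0.983), over 6 samples that all share the genotype difference for which the table was made. With the genotype means removed, r was 0.979, 0.976, 0.966, 0.982 and 0.961. *B2m*, the light chain of MHC class I, had 424.3, 356.7 and 290.1 scaled counts in WT and 515.4, 656.2 and 450.1 in *Slc6a4*-/- samples 1 to 3. Within each genotype the samples stood in the order of *Gpnmb*, over a smaller range, but the groups of *B2m* did not overlap. Of the members above the minimum, *Dct* ranked 26th (r = 0.953), *Pmel* 34th (0.947), *Tyrp1* 103rd (0.879) and *Rab38* 126th (0.862) among the 513 genes. *Mlana*, below the minimum, had r = 0.982. Genes outside the melanosome list therefore lay nearer to *Gpnmb* over these samples than *Pmel* did. These values describe 6 samples and carry no test.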

How the data were processed

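RNA-seq libraries were made from pools of peripheral VT retinae, 3 per genotype. The authors reduced ribosomal RNA, sequenced paired ends and used CLC Genomics Grid Workbench for alignment (GRCm38) and for counting. Whether a pair counts as 1 or 2 is not given in the sources used here. The library totals solved here lie well above the reads per sample that the paper states, and the reason was not tested. If the 2 reads of a pair were counted singly, the Poisson intervals would be too narrow. The deposited table gives raw whole-number counts, with a comma as digit separator, for 701 genes with at least 10 reads in 2 samples of a genotype and a p-value below 0.05. A further deposited column, used here, holds RPKM averaged by the authors over whichever genotype was higher. The deposited fold change, log fold change, p-value, FDR and Bonferroni columns hold the authors' own comparison and were not used.

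Library totals were solved from the RPKM column, the counts and GENCODE M21 exon lengths by robust non-negative least squares (genes above 2 RPKM and 100 mean counts). The solution used 78 genes for WT and 62 for *Slc6a4*-/-, with a median absolute residual of 0.0336% and 0.0452%. On simulated data the largest error of a factor was 0.0073 on the log2 scale. Genotypes were compared with limma 3.58.1 (R 4.3.3) on log2(scaled count + 1), where changes of low counts come out too small, with genotype as the only term. A count model was not the main test, since the values with their commas failed an automatic check for counts. With the commas removed all were whole numbers, and voom weights were tried as an alternative. On counts drawn for the 701 genes, of which 200 were set to change, limma called 76.6% of genes set to a 2-fold change and 0.778% of unchanged genes. These shares are averages over genes of unlike spread. They do not give the share for genes with the spread of the members. Ratios were compared by exact permutation. Poisson intervals cover counting error only. No count column was left out, and 25 blank lines were skipped. Libraries of one genotype differed by far more than counting noise, and the p-values measure the spread between pools. The genes named are the members, *Slc6a4*, list genes in the table (up to 6 per list by level) and the 5 genes nearest to *Gpnmb*. The members and lists were chosen with earlier results of these data known. Comparisons of *Gpnmb* with *Dct*, *Tyrp1*, *Mlana* and *Rab38* singly, and the levels on GENCODE length, were not among the tests planned at the outset.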

Additional observations from a re-analysis of the deposited data

How the results depend on the processing

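All 6 members had a higher mean in *Slc6a4*-/- under each of the 14 alternatives. With all samples 397 of the 701 genes did so too. Since the table kept only genes that differed between the genotypes in these same samples, a steady direction is no independent evidence. Past an adjusted p of 0.05 and 1.5-fold in limma, 0 members passed with all samples, 1 (*Dct*, adjusted p = 0.049) with a replicate block, 2 (*Gpnmb* and *Pmel*) with no scaling, and 0 to 4 without 1 sample each. The table's count of calls was 8 with all samples, 15 with the block, 114 with no scaling, 41 without a trend, 159 without WT sample 1, 17 without *Slc6a4*-/- sample 3, 4 without WT sample 2 and 5 without *Slc6a4*-/- sample 2. Same-numbered samples did not all deviate together (r = 0.43, -0.18 and 0.21 over 514 genes), so the numbers were not taken as pairs. Under the block the difference in the *Gpnmb* to *Pmel* log2 ratio was -0.06 (exact permutation p = 0.75) and that to the mean of the 5 others was 0.01. These small differences changed sign easily: between -0.22 and 0.11 for *Pmel* and between -0.11 and 0.15 for the mean, each without 1 sample, and -0.057 with the median of the other members in place of their mean. Scaling by the median of ratios left 1 member (*Pmel*) whose groups did not overlap, and 168 genes of the table against 245. The cause of these shifts was not tested. Counting error was widest for *Mlana*, with 11 to 83 reads per sample.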
